A study of Mus musculus with 19 samples.

Results

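Mouse embryonic stem cells (ESCs) kept in PKCi/L medium were compared with ESCs kept in S/L medium, both at passage 10, over all 12942 genes of the deposited table. The comparison rests on 4 of the 19 libraries of the series, 2 for each medium, chosen by medium and passage alone. In both groups male ESCs at passage 4 had spent 6 passages in the named medium on feeder layers of mouse embryonic fibroblasts, with passaging by trypsin. Cells positive for the surface antigen SSEA1 were sorted before RNA extraction, so both groups describe SSEA1-positive cells only. By their titles the PKCi/L libraries came from lines J-34 and J-37 and the S/L libraries from lines J-34 and J-35. For the second PKCi/L library another label names line J-35, and the title is followed here. The second pair of libraries therefore also sets 1 line against another. The labels give the media by short names only. PKCi/L is read here, as is usual for mouse ESCs, as medium with leukaemia inhibitory factor (LIF) and an inhibitor of protein kinase C, and S/L as serum with LIF. Whether PKCi/L held serum, and which inhibitor it held, is not given in the sources used here. Libraries of 2i/L and a2i/L at passage 10 (2 each, lines J-34 and J-35) serve as further comparisons, and their media are likewise known by label only.

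LIF keeps mouse ESCs undifferentiated through the JAK and STAT3 pathway, and serum adds many growth factors and adhesion proteins whose composition is not defined. The protein kinase C family comprises calcium-dependent, calcium-independent and atypical kinases that act on adhesion, the cytoskeleton, NF-kB and ERK signalling. Inhibition of these kinases is known to hold mouse ESCs in self-renewal without direct inhibition of the kinase MEK, which 2i media block.

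Levels are CPM, read counts of a gene scaled to a common library total, as deposited, given for J-34 and then J-37 in PKCi/L and for J-34 and then J-35 in S/L. Differences are log2 fold changes of CPM + 0.5, PKCi/L minus S/L, with the standard error from a limma fit after ± (n = 2 libraries in each group). The added 0.5 CPM makes fold changes of weakly expressed genes too small. A gene is said to have risen or fallen where its Benjamini-Hochberg adjusted p over all genes was under 0.05. In PKCi/L 750 genes (5.80% of those tested) rose and 3046 (23.5%) fell, of which 235 and 961 changed at least 2-fold. Every listed gene reaches at least 1.01 CPM in 3 libraries of the series. A gene at that level in the 2 PKCi/L libraries alone is therefore not listed, while S/L has further libraries at passage 20. The split and all shares given here hold for listed genes only. Without J-34 in PKCi/L 453 genes rose, and without J-34 in S/L 443. The median log2 fold change of all genes was -0.17, and after trimmed mean of M values (TMM) scaling it was at -0.01, a shift of 0.16. With that scaling 2196 genes (17.0%) rose and 2532 (19.6%) fell, so the split between higher and lower depends on the scaling. Of the 750 rises 747 were also called with TMM, as were 2532 of the 3046 falls, and no gene was called in opposite directions. Both PKCi/L values lay above both S/L values for 740 of the called rises and below them for 3041 of the called falls, against 16.6% and 47.2% of all genes. The calls use the same values, so groups that lie apart in called genes, here and below, are a description and no separate support. The depth read from the smallest steps of the CPM values was 42.4 M and 36.9 M reads in PKCi/L and 34.7 M and 38.4 M reads in S/L. With 2 libraries a group the smallest exact permutation p for a single gene is 0.333, so all tests are those of the fit across genes. The labels do not say whether libraries of a group came from separate cultures beyond their line. The p-values measure only the spread within groups over all 19 libraries of the fit, most of which are of other media or passages.

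**Figure D1:**
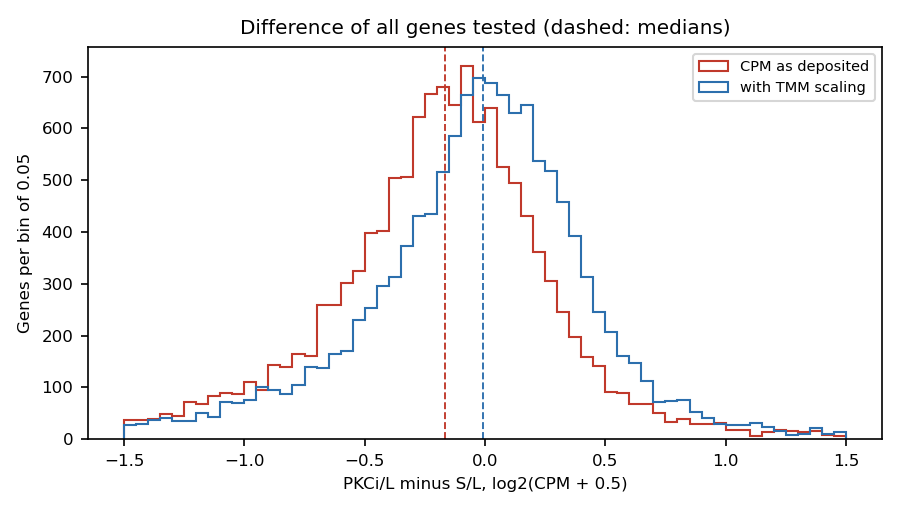
Number of genes (y axis, bins of 0.05) by difference PKCi/L minus S/L on the log2(CPM + 0.5) scale (x axis), for CPM as deposited and with TMM scaling, from -1.5 to 1.5. The dashed medians lie at -0.17 without scaling and -0.01 with it.

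Lines were checked in several ways. The J-34 pair is itself part of the whole comparison, so agreement of its calls with that comparison is partly built in. In the J-34 pair alone, in which medium is the only labelled difference, 570 genes (4.40%) rose and 1664 (12.9%) fell, and 2125 of the 2234 were called the same way in the whole comparison. Between lines J-37 and J-35 in the 9 libraries of passages 20 and 23, 22 genes (0.170%) differed, and 8 of them were also called between PKCi/L and S/L. That count was 3 without J-37 in S/L or in 2i/L at passage 20, 9 to 12 without 1 of the J-34 and J-35 libraries of S/L at passage 20 or of the return to S/L at passage 23, and 271 without J-37 of the return. The plot of both pair differences shows the large changes in both pairs. Among called genes past 2-fold, 2 had opposite signs in the 2 pairs, the small nuclear RNA features U1 and U6atac.

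**Figure D2:**
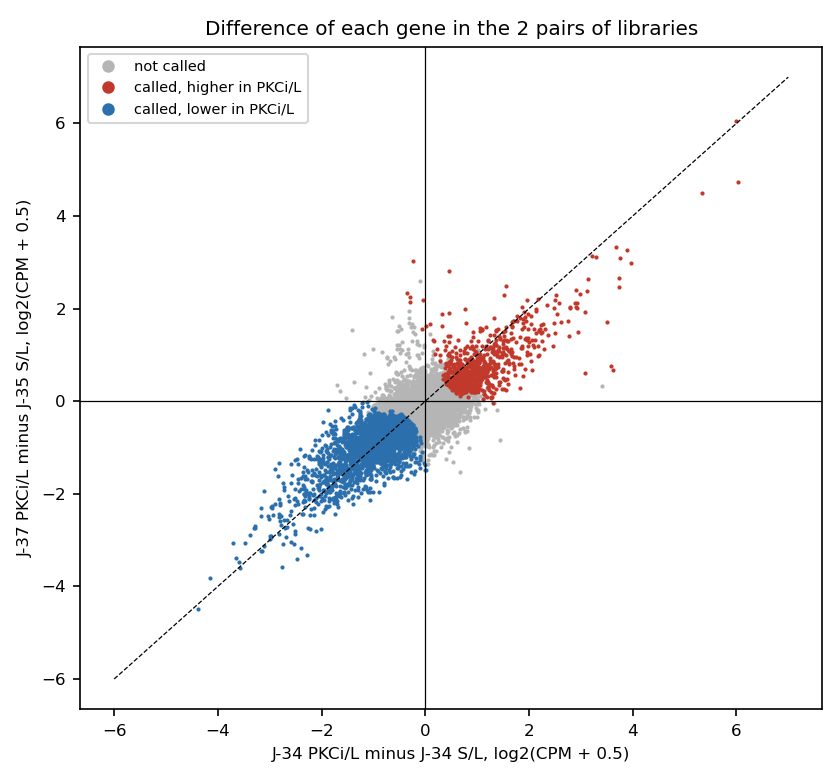
Each point is 1 of 12942 genes, with its difference in the J-34 pair (x axis) and between J-37 in PKCi/L and J-35 in S/L (y axis), both in log2(CPM + 0.5). Called rises (red) lie mostly upper right and called falls (blue) mostly lower left, the dashed line marks equal differences, and a few called genes lie near 0 in 1 of the pairs.

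Among genes with names, the largest rises held interferon-inducible genes, genes known to respond to low oxygen and genes of the early neural lineage. Ifi27l1, a member of the interferon-inducible Ifi27 family, had 49.4 and 47.99 CPM in PKCi/L, against 0.29 and 0.23 CPM in S/L (log2 fold change 6.02 ± 0.25, adjusted p = 9.56e-20). A2m, which encodes the protease inhibitor alpha-2-macroglobulin, had 88.2 and 62.96 CPM in PKCi/L, against 0.86 and 1.9 CPM in S/L (log2 fold change 5.38 ± 0.18, adjusted p = 1.59e-22). Lef1, a DNA-binding partner of beta-catenin, had 24.6 and 14.8 CPM in PKCi/L, against 0.12 and 0.18 CPM in S/L (log2 fold change 4.91 ± 0.25, adjusted p = 2.72e-17). All 3 genes were low in both S/L libraries and high in both PKCi/L libraries. Ndufa4l2, a mitochondrial protein gene induced through hypoxia-inducible factor, had 19.3 and 30.3 CPM in PKCi/L, against 1.04 and 2.55 CPM in S/L (3.51 ± 0.24). Anxa2, which encodes a calcium-dependent membrane-binding protein, had 65.4 and 66.9 CPM in PKCi/L, against 6.63 and 7.18 CPM in S/L (3.17 ± 0.16), with closely matching libraries in each medium. Trh, the precursor of thyrotropin-releasing hormone, had 243 and 164 CPM in PKCi/L, against 17.8 and 29.2 CPM in S/L (3.10 ± 0.32). The remaining large rises, Irgm1, Ndrg1, Zic2, Bnip3, Usp18 and Ncam1, are described with their groups.

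The largest falls held secreted, matrix and cytoskeletal genes. Htra1, a secreted serine protease, had 0.92 and 0.81 CPM in PKCi/L, against 29.02 and 28.9 CPM in S/L (log2 fold change -4.43 ± 0.19, adjusted p = 2.42e-19). Wnt7b, a Wnt ligand, had 0 and 0.11 CPM in PKCi/L, against 5.45 and 6.95 CPM in S/L (-3.59 ± 0.28). The groups lay far apart for both genes, and each S/L library was above both PKCi/L libraries. Calml4, a calmodulin-like gene, had 0.12 and 0.19 CPM in PKCi/L, against 7.26 and 6.74 CPM in S/L (-3.52 ± 0.25). Calcoco2, an autophagy receptor, had 0.59 and 0.19 CPM in PKCi/L, against 6.86 and 7.81 CPM in S/L (-3.17 ± 0.22). Ptges, which makes prostaglandin E2, had 0.35 and 0.46 CPM in PKCi/L, against 8.3 and 6.61 CPM in S/L (-3.13 ± 0.19). Abcb1b, a drug efflux pump of the P-glycoprotein family, had 1.86 and 2.19 CPM in PKCi/L, against 22.9 and 17.4 CPM in S/L (-3.02 ± 0.17). The protocadherin Fat2 (-3.27 ± 0.25), the annexin Anxa3 (-3.19 ± 0.22) and the vasohibin Vash1 (-3.12 ± 0.19) fell by similar amounts.

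**Figure D3:**
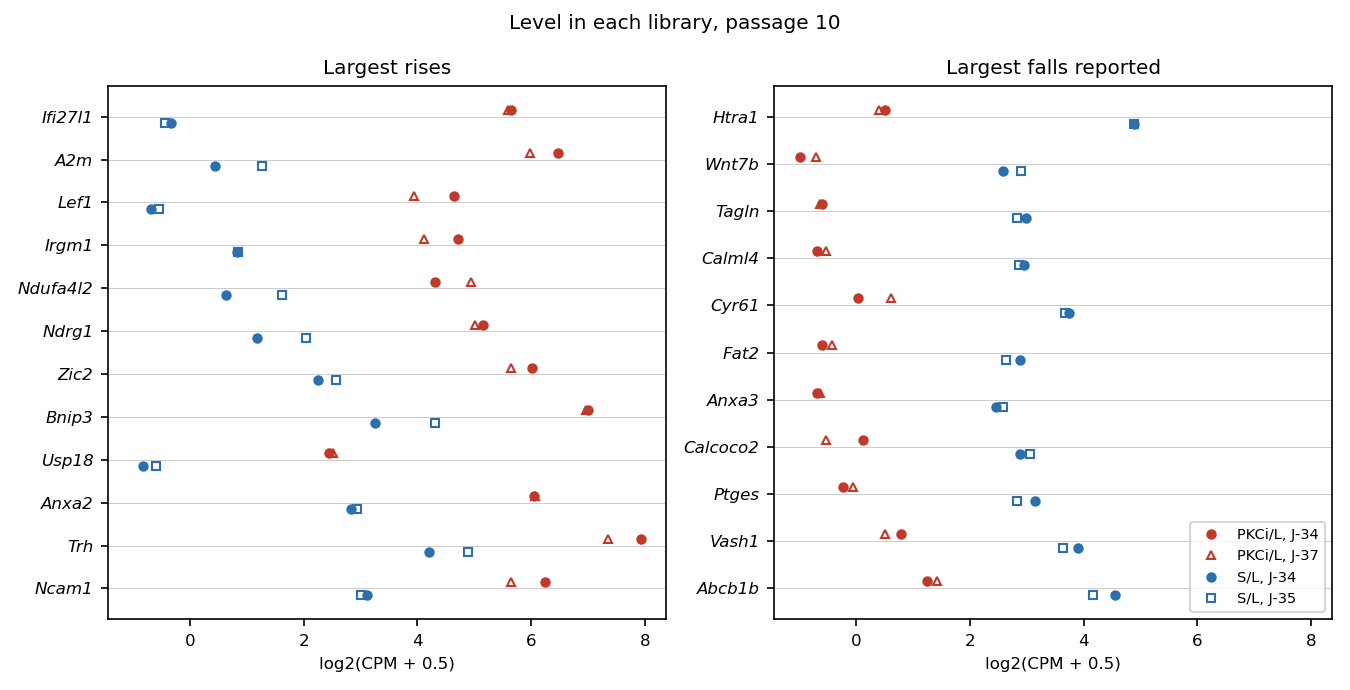
Level in each of the 4 libraries (x axis, log2(CPM + 0.5)) of the named genes with the largest rises (left) and the largest falls (right). PKCi/L libraries (red) and S/L libraries (blue) stand apart for every gene shown, as the choice of genes required.

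Interferon response genes rose together in PKCi/L. Of 29 measured list members 20 rose and none fell, against 5.80% and 23.5% of all genes, and the list's median log2 fold change was 0.97, against -0.17 over all genes. The list names 42 genes, and those not measured are not covered by these counts. Isg15 and Ifit1, known genes of this response, were not measured. Both PKCi/L values lay above both S/L values for 24 of the 29 (16.6% of all genes). With the ESC line as block 19 rose and 1 fell, and 1 fell without J-34 in S/L or in the fit to passages 7 and 10. With a pseudocount of 0.1 CPM 2 fell. Usp18, a protease that removes the ISG15 modifier and restrains interferon receptor signalling, had 4.95 and 5.2 CPM in PKCi/L, against 0.06 and 0.16 CPM in S/L (log2 fold change 3.20 ± 0.25, adjusted p = 1.26e-12). Samd9l, an interferon-inducible antiproliferative gene, had 6.6 and 3.82 CPM in PKCi/L, against 0.43 and 0.57 CPM in S/L (log2 fold change 2.47 ± 0.30, adjusted p = 5.24e-08). The PKCi/L libraries were above the S/L libraries for both genes. Oas1a and Oasl2, of the 2'-5' oligoadenylate synthetase family, rose as well. Oas1a had 9.26 and 7.01 CPM in PKCi/L, against 1.64 and 2.13 CPM in S/L (1.85 ± 0.21), and Oasl2 had 2.07 and 1.54 CPM in PKCi/L, against 0.2 and 0.1 CPM in S/L (1.82 ± 0.25). Irf7, a transcription factor of the same response, had 1.3 and 1.54 CPM in PKCi/L, against 0.37 and 0.18 CPM in S/L (log2 fold change 1.32 ± 0.25, adjusted p = 7.02e-05). The RNA sensor Ddx58 (1.50 ± 0.23), the membrane protein Ifitm3 (1.20 ± 0.24) and the transcription factor Irf9 (1.22 ± 0.20) also rose. Ifit2 (-0.50 ± 0.23, adjusted p = 0.103), Gbp2 (-0.57 ± 0.28, adjusted p = 0.129) and Trim25 (-0.30 ± 0.14, adjusted p = 0.0947) did not pass, with estimates below 0. Pairs of near-identical genes, such as Oas1a and Oas1b or the Ifitm genes, may share reads, and their split is uncertain. Irgm1, an interferon-induced GTPase outside the list, had 25.7 and 16.7 CPM in PKCi/L, against 1.27 and 1.3 CPM in S/L (log2 fold change 3.57 ± 0.27, adjusted p = 6.31e-13).

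The promoter windows of Irgm1 and Oas1a are shown because both genes rose several-fold and both windows hold the interferon-stimulated response element. The windows run from 250 bases before to 50 bases after the annotated start (RefSeq, build GRCm38.p6, not the build the authors used) and are given 5′ to 3′ on the gene's strand. Capitals mark the motif GAAANNGAAA, with its 2 overlapping copies merged.
Irgm1 (chr11:48871371-48871670, minus strand): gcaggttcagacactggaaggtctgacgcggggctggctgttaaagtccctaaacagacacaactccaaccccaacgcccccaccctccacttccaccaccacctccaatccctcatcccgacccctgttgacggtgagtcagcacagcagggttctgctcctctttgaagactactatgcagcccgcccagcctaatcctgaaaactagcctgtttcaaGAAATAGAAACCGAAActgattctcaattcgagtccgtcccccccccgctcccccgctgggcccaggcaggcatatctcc
Oas1a (chr5:120907476-120907775, minus strand): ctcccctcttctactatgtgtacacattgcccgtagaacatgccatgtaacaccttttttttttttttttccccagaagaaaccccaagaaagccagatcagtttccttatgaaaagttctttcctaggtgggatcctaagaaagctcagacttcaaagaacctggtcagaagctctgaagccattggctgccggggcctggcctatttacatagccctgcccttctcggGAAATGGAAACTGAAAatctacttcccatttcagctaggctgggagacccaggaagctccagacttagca
The first copy begins 30 bases before the start in Irgm1 and 20 bases before it in Oas1a. Searched on both strands, the motif was in the window of 7 of the 16 risen list members with a RefSeq window, which is 43.8%, against 3.29% of the 9972 tested genes with a window and 3.44% of all windows. Those 7 were Ifitm2, Ifitm3, Oas1a, Oas1b, Bst2, Ddx58 and Eif2ak2. Windows of a gene family are similar in sequence and not independent, and a match in letters does not show binding. The list was made of interferon response genes, and members that did not rise were not counted apart, so the share is a description only.

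The antigen presentation list moved in both directions, with a share of falls near the 23.5% of all genes, of which 5.80% rose. Of 12 members 3 rose and 3 fell, and 1 fell without J-34 in PKCi/L or without J-35 in S/L. With TMM 4 rose and 2 fell, against 17.0% and 19.6% of all genes. H2-D1, a class I heavy chain gene, had 14.8 and 13.97 CPM in PKCi/L, against 3.26 and 3.54 CPM in S/L (log2 fold change 1.94 ± 0.19, adjusted p = 2.91e-10), and H2-K1 had 20.4 and 19.12 CPM in PKCi/L, against 7.78 and 7.7 CPM in S/L (1.30 ± 0.18). B2m, which encodes their light chain, had 8.46 and 8.75 CPM in PKCi/L, against 12.3 and 14.8 CPM in S/L (log2 fold change -0.62 ± 0.18, adjusted p = 0.00914), and Psmb9, an immunoproteasome subunit, had 0.52 and 0.6 CPM in PKCi/L, against 2.16 and 1.54 CPM in S/L (-1.14 ± 0.23). The class I genes are near-identical in parts, so their separate levels are uncertain. The fall of B2m was not called without J-35 in S/L (-0.49, adjusted p = 0.131) or without J-34 in PKCi/L (-0.60, adjusted p = 0.0529), or in the J-34 pair alone (-0.51, adjusted p = 0.203).

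Glycolytic genes and other genes that respond to low oxygen were several-fold higher in PKCi/L. Of 20 glycolysis genes 16 rose and none fell (median 1.34), and of 17 other hypoxia genes 14 rose and 1 fell (median 0.91). The shares over all genes were 5.80% and 23.5%, with a median of -0.17. Without J-37 in PKCi/L 1 glycolysis gene fell. Ldha, which turns pyruvate into lactate, had 965 and 884 CPM in PKCi/L, against 166 and 239.96 CPM in S/L (log2 fold change 2.21 ± 0.19, adjusted p = 1.15e-11). Pgk1, an ATP-yielding enzyme of the pathway, had 452 and 451 CPM in PKCi/L, against 80.6 and 111 CPM in S/L (log2 fold change 2.25 ± 0.18, adjusted p = 1.7e-12), and Pfkl, a subunit of phosphofructokinase, had 437 and 391 CPM in PKCi/L, against 92.5 and 124 CPM in S/L (1.95 ± 0.18). Slc16a3, the lactate exporter, had 81.04 and 78.1 CPM in PKCi/L, against 8.91 and 14.6 CPM in S/L (2.75 ± 0.23). In each of these genes J-34 in S/L was the lowest library, and both PKCi/L values were above both S/L values. Bnip3, a receptor for the removal of mitochondria, had 127 and 124 CPM in PKCi/L, against 9.05 and 19.3 CPM in S/L (log2 fold change 3.20 ± 0.22, adjusted p = 8.9e-14). Ndrg1, a stress and hypoxia response gene, had 35.1 and 31.9 CPM in PKCi/L, against 1.76 and 3.59 CPM in S/L (3.48 ± 0.20), and the oxygen-sensing prolyl hydroxylase Egln3 had 28.6 and 26.2 CPM in PKCi/L, against 3.37 and 6.01 CPM in S/L (2.47 ± 0.20). The collagen prolyl hydroxylase P4ha1 had 89.4 and 109 CPM in PKCi/L, against 19.97 and 27.1 CPM in S/L (2.06 ± 0.17). Hk1 (-0.38 ± 0.16, adjusted p = 0.0673), Pfkm (-0.23 ± 0.15, adjusted p = 0.257), Slc16a1 (-0.17 ± 0.14, adjusted p = 0.413) and the angiogenic ligand Vegfa (-0.03 ± 0.15, adjusted p = 0.924) did not pass. Mxi1, a MAX-binding repressor, was the hypoxia list member that fell (-0.54 ± 0.18), and no member fell without J-37 in PKCi/L, without J-35 in S/L or in the J-34 pair alone.

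The windows of Bnip3 and Ldha are shown as examples of risen genes that hold the core of the hypoxia response element. Capitals mark ACGTG on either strand (CACGT as read here). Where both strands match, the 6 letters CACGTG also form an E-box.
Bnip3 (chr7:138909457-138909756, minus strand): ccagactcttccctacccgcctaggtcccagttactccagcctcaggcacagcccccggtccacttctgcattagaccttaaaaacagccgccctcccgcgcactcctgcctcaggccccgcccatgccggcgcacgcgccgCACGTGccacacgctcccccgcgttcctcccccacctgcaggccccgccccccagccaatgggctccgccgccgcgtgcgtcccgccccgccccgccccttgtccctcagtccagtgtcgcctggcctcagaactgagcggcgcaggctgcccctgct
Ldha (chr7:46845554-46845853, plus strand, 1 of 2 annotated windows): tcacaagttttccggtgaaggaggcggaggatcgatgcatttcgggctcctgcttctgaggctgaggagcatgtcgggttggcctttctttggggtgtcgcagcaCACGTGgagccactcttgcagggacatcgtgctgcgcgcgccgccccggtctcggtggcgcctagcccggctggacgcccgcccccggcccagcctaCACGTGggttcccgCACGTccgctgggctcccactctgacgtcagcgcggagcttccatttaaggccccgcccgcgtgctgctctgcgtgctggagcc
The core was in a window of 18 of the 27 risen glycolysis and hypoxia genes with an entry (66.7%), against 29.8% of tested genes with an entry and 19.6% of all windows. So short a motif is common, and its presence is a description only.

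Of 17 core pluripotency factors 2 rose and 2 fell in PKCi/L, and as over all genes, of which 29.3% were called, most did not pass. With TMM 5 rose and 2 fell, against 17.0% and 19.6% of all genes. Pou5f1, the central transcription factor of pluripotency, had 513 and 468 CPM in PKCi/L, against 519 and 554 CPM in S/L (-0.13 ± 0.17, 95% interval -0.48 to 0.22, adjusted p = 0.612), and Nanog had 274 and 257 CPM in PKCi/L, against 277 and 282 CPM in S/L (-0.07 ± 0.15, interval -0.38 to 0.23, adjusted p = 0.764). Neither gene passed the test. Sox2 had 226 and 223 CPM in PKCi/L, against 176 and 197 CPM in S/L (0.27 ± 0.15, adjusted p = 0.168), and it was called higher only with TMM or median-ratio scaling and in the fit to passages 7 and 10 (with TMM 0.45, adjusted p = 0.000262). Dppa5a, an RNA-binding ESC marker, had 631 and 703 CPM in PKCi/L, against 1092 and 1332 CPM in S/L (log2 fold change -0.86 ± 0.17, adjusted p = 0.000185), and the chromatin-associated Dppa4 was the other fall (-0.69 ± 0.15). The fall of Dppa4 was not called in the J-34 pair alone (-0.55, adjusted p = 0.0751). Sall1 (0.60 ± 0.18) and the Nodal co-receptor Tdgf1 (0.49 ± 0.16) were the rises, and both were lost without J-34 in PKCi/L (0.45, adjusted p = 0.141 and 0.39, adjusted p = 0.152) or without J-34 in S/L (0.56, adjusted p = 0.0845 and 0.39, adjusted p = 0.182).

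Naive factors moved in both directions, with 5 of 18 higher and 4 lower (9 and 4 with TMM). Over all genes 5.80% were higher and 23.5% lower (17.0% and 19.6% with TMM), so the share of falls was near that of all genes. Klf2, a transcription factor of the naive state, had 50.4 and 36.3 CPM in PKCi/L, against 19.5 and 22.4 CPM in S/L (log2 fold change 1.02 ± 0.21, adjusted p = 0.000328). Tfcp2l1, a LIF-responsive naive factor, had 227 and 152 CPM in PKCi/L, against 397 and 328 CPM in S/L (log2 fold change -0.96 ± 0.18, adjusted p = 5.36e-05), and Tbx3 had 46.9 and 34.1 CPM in PKCi/L, against 88.7 and 84.8 CPM in S/L (-1.11 ± 0.18). Dppa3, a maternal factor that protects against DNA methylation, had 0.78 and 1.08 CPM in PKCi/L, against 4.5 and 4.79 CPM in S/L (log2 fold change -1.85 ± 0.32, adjusted p = 2.64e-05), and Nlrp4f had 3.91 and 2.92 CPM in PKCi/L, against 29.1 and 28.3 CPM in S/L (log2 fold change -2.91 ± 0.18, adjusted p = 3.94e-15). The groups did not overlap in any of these 5 genes. Esrrb (0.17 ± 0.15, adjusted p = 0.427), Zfp42 (0.24 ± 0.17, adjusted p = 0.304) and Prdm14 (0.37 ± 0.18, adjusted p = 0.123) did not pass, and all 3 were called higher with TMM or median-ratio scaling. Prdm14 was also called higher in the J-34 pair alone (0.74, adjusted p = 0.0325). The count of rises was 3 without J-34 in PKCi/L and 2 without J-34 in S/L. Among LIF and STAT3 genes 4 of 15 rose and 4 fell, with the falls again near the share of all genes. The LIF co-receptor gene Il6st had 78.9 and 71.8 CPM in PKCi/L, against 45.02 and 45.02 CPM in S/L (0.73 ± 0.14), the feedback gene Socs2 52.9 and 42.1 CPM in PKCi/L, against 23.5 and 27.9 CPM in S/L (0.87 ± 0.17) and the kinase gene Pim1 21.8 and 20.6 CPM in PKCi/L, against 60.3 and 53.4 CPM in S/L (-1.40 ± 0.19). The rises in this list were 2 without J-34 in PKCi/L or without J-34 in S/L.

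Genes of the formative and early neural stages were higher in part. Of 15 formative and primed markers 7 rose and 3 fell, and of 10 neural markers 6 rose and none fell (median 1.19). The shares over all genes were 5.80% and 23.5%, with a median of -0.17. Without J-34 in S/L 4 formative markers rose. Zic2, a zinc finger factor that acts at primed enhancers, had 63.9 and 49.7 CPM in PKCi/L, against 4.24 and 5.41 CPM in S/L (log2 fold change 3.43 ± 0.19, adjusted p = 9.19e-17). Ncam1, a neural adhesion molecule, had 75.5 and 49.9 CPM in PKCi/L, against 8.19 and 7.57 CPM in S/L (log2 fold change 2.88 ± 0.20, adjusted p = 5.44e-14), and Pax6, a neural transcription factor, had 5.42 and 6.39 CPM in PKCi/L, against 1.5 and 0.73 CPM in S/L (log2 fold change 2.03 ± 0.26, adjusted p = 1.11e-07). Nes, an intermediate filament gene of neural progenitors, had 8.55 and 6.58 CPM in PKCi/L, against 2.31 and 1.64 CPM in S/L (1.71 ± 0.22), and Sox11 had 13.8 and 9.48 CPM in PKCi/L, against 3.98 and 4.55 CPM in S/L (1.33 ± 0.24). In all 5 genes both PKCi/L libraries were above both S/L libraries. Lefty2, a Nodal target that inhibits Nodal, had 30.4 and 20.7 CPM in PKCi/L, against 6 and 7 CPM in S/L (log2 fold change 1.87 ± 0.25, adjusted p = 3.34e-07). The epithelial genes Grhl2, a transcription factor with 1.84 and 1.73 CPM in PKCi/L, against 6.98 and 10.3 CPM in S/L (-1.98 ± 0.25), and Cldn6, a claudin with 3.53 and 7.66 CPM in PKCi/L, against 17.3 and 23.4 CPM in S/L (-1.85 ± 0.26), were among the 3 falls. Otx2, a formative factor, had 8.93 and 10.5 CPM in PKCi/L, against 3.31 and 5.57 CPM in S/L (log2 fold change 1.08 ± 0.25, adjusted p = 0.000918), and it was not called without J-34 in S/L (0.75, adjusted p = 0.069). Since the SSEA1-sorted cells were sequenced in bulk, more cells of a type and more RNA per cell cannot be told apart.

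Markers of other cell types were summed per library. The 3 measured neural markers summed to 55.8 and 41.7 CPM in PKCi/L, against 18.4 and 20.6 CPM in S/L, all 3 higher, while Sox1, Neurog2 and Hes5 were not analysed here. The 17 measured fibroblast markers of the feeder layer summed to 28.1 and 21.1 CPM in PKCi/L and 35.5 and 27.2 CPM in S/L. Of these 1 was higher (the collagen gene Col3a1) and 5 lower, against 5.80% and 23.5% of all genes. Vim, an intermediate filament gene of the longer feeder list that is not in this sum, had 211 and 169 CPM in PKCi/L, against 36.8 and 36.8 CPM in S/L (log2 fold change 2.34 ± 0.18, adjusted p = 1.81e-12). In that list of 19 measured genes 2 rose and 5 fell (3 fell without J-37 in PKCi/L or without J-34 in S/L). The 6 measured primitive endoderm markers summed to 2.33 and 2.60 CPM in PKCi/L and 8.38 and 7.13 CPM in S/L, with 5 lower. The 4 measured trophoblast markers summed to 3.25 and 4.20 CPM in PKCi/L and 8.30 and 7.54 CPM in S/L. The 9 measured ESC markers summed to 3084 and 2922 CPM in PKCi/L and 3127 and 3527 CPM in S/L, so both groups carried the ESC label's genes. No measured marker of these sets was listed at 0 in all 4 libraries. Markers that were not measured are not covered by this. Only 6 of 12 primitive endoderm and 4 of 9 trophoblast markers were measured, and 0 of 5 mesoderm markers. What part, if any, other cells had in the gene groups was not tested. Fut9, the fucosyltransferase that makes the SSEA1 antigen in mouse ESCs, had 34.2 and 29.5 CPM in PKCi/L, against 12.4 and 12.9 CPM in S/L (log2 fold change 1.29 ± 0.21, adjusted p = 8e-06), and both groups were sorted for SSEA1.

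Germline genes were low in PKCi/L, more often than the 23.5% of all genes that fell. Of 35 measured genes 26 fell and none rose (24 and none with TMM), with a median of -1.30, against -0.17 over all genes, and both PKCi/L values were below both S/L values for 33 of 35 (47.2% of all genes). Tex15, a factor of meiosis and piRNA-directed silencing, had 3.32 and 4.44 CPM in PKCi/L, against 26.3 and 26.4 CPM in S/L (log2 fold change -2.63 ± 0.18, adjusted p = 3.74e-14). Fkbp6, a chaperone of the piRNA pathway, had 0.57 and 0.46 CPM in PKCi/L, against 5.91 and 7.44 CPM in S/L (log2 fold change -2.82 ± 0.28, adjusted p = 3.85e-10), and Mov10l1, a piRNA helicase, had 1.72 and 2.98 CPM in PKCi/L, against 13.5 and 13.9 CPM in S/L (log2 fold change -2.35 ± 0.22, adjusted p = 1.68e-10). Dazl, an RNA-binding protein of germ cells, had 4.64 and 3.71 CPM in PKCi/L, against 14.7 and 15.8 CPM in S/L (log2 fold change -1.76 ± 0.23, adjusted p = 2.43e-07), and Stra8, a gatekeeper of meiosis, had 0.59 and 0.76 CPM in PKCi/L, against 3.75 and 3.64 CPM in S/L (-1.84 ± 0.23). In all 5 genes the groups lay apart in both pairs. Among the 5 measured genes of the two-cell stage 3 of the Zscan4 family fell. Zscan4d had 0 and 0.03 CPM in PKCi/L, against 0.92 and 0.68 CPM in S/L (log2 fold change -1.33 ± 0.26, adjusted p = 0.000101), and copies of this family share sequence, so their split is uncertain. The count of 3 was 2 with TMM and 1 without J-34 in PKCi/L, without J-34 in S/L, in the J-34 pair alone and with a pseudocount of 1 CPM.

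Genes of DNA methylation moved in both directions. Of 14 genes 1 rose and 5 fell (5 and 4 with TMM), against 5.80% and 23.5% of all genes (17.0% and 19.6% with TMM). Dnmt3a, a de novo methyltransferase, had 34.2 and 36.1 CPM in PKCi/L, against 71.8 and 62.7 CPM in S/L (log2 fold change -0.92 ± 0.18, adjusted p = 0.000113), while its relative Dnmt3b had 74.5 and 58.6 CPM in PKCi/L, against 51.9 and 55.7 CPM in S/L (0.29 ± 0.18, adjusted p = 0.227, with TMM 0.47, adjusted p = 0.00882). The cofactor gene Dnmt3l had 187 and 143 CPM in PKCi/L, against 95.3 and 125 CPM in S/L (log2 fold change 0.58 ± 0.20, adjusted p = 0.0293). The rise of Dnmt3l was lost with the ESC line as block (0.44, adjusted p = 0.08), without J-34 in PKCi/L (0.38, adjusted p = 0.262) and without J-34 in S/L (0.38, adjusted p = 0.306), and the falls of the list were 3 without J-34 in S/L and 2 in the J-34 pair alone. The maintenance genes Dnmt1 (0.18 ± 0.15, interval -0.13 to 0.48) and Uhrf1 (0.07 ± 0.16, interval -0.24 to 0.39) did not pass, and both were called higher with TMM or median-ratio scaling. Gadd45a, a stress gene tied to demethylation, had 14 and 13.5 CPM in PKCi/L, against 30.6 and 28.7 CPM in S/L (-1.08 ± 0.19). Of 15 Polycomb genes 4 fell and none rose (1 rose with TMM), a share of falls near the 23.5% of all genes. Phf19, like Aebp2 an accessory subunit of the complex that methylates histone H3 at lysine 27, had 2.07 and 2.09 CPM in PKCi/L, against 7.78 and 7.78 CPM in S/L (-1.68 ± 0.22). Aebp2 had 28.6 and 28.9 CPM in PKCi/L, against 67.2 and 60.2 CPM in S/L (-1.13 ± 0.15).

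Nearly all genes of the kinases that PKCi/L is named for did not pass the test, while 29.3% of all genes were called. Of 13 genes of the protein kinase C family and its relatives none rose and 1 fell (2 and 1 with TMM, 3 rises with median-ratio scaling, and 2 falls with the ESC line as block). The atypical kinase Prkci had 118 and 99.9 CPM in PKCi/L, against 122 and 99.2 CPM in S/L (-0.02 ± 0.15, interval -0.34 to 0.29), and the calcium-independent kinase Prkcd had 12.8 and 14.1 CPM in PKCi/L, against 12.1 and 12.6 CPM in S/L (0.12 ± 0.16, interval -0.22 to 0.45). Prkcz had 10.2 and 13.6 CPM in PKCi/L, against 14.9 and 15.3 CPM in S/L (-0.35 ± 0.18, adjusted p = 0.153), and the calcium-dependent Prkca had 1.67 and 2.06 CPM in PKCi/L, against 1.82 and 2.08 CPM in S/L (-0.05 ± 0.22, adjusted p = 0.888). None of these 4 genes passed, although Prkcd was called higher with median-ratio scaling (0.29, adjusted p = 0.0498). RNA levels do not measure kinase activity. The fall was in Prkd1, of the related kinase D family, with 1.51 and 1.06 CPM in PKCi/L, against 2.36 and 2.86 CPM in S/L (log2 fold change -0.81 ± 0.24, adjusted p = 0.00996), and it was not called without J-37 in PKCi/L (-0.63, adjusted p = 0.124), without J-35 in S/L (-0.69, adjusted p = 0.099) or in the J-34 pair alone (-0.51, adjusted p = 0.348).

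Targets of ERK signalling differed among themselves. Of 15 feedback and ETS genes 1 rose and 4 fell, shares near those of all genes (5.80% and 23.5%), and in the J-34 pair alone 2 rose and 2 fell. The feedback inhibitor gene Spry4 had 72.1 and 52.2 CPM in PKCi/L, against 79.4 and 88.5 CPM in S/L (-0.45 ± 0.22, interval -0.90 to 0.01, adjusted p = 0.133), and the ERK phosphatase gene Dusp6 had 57.99 and 54 CPM in PKCi/L, against 61.9 and 67.3 CPM in S/L (-0.20 ± 0.19, interval -0.60 to 0.19, adjusted p = 0.464). Neither passed, and Spry4 was called lower in the fit to the 4 libraries alone (-0.45, adjusted p = 0.0459). Etv4, an ETS transcription factor, had 18.3 and 8.72 CPM in PKCi/L, against 90.1 and 91.8 CPM in S/L (log2 fold change -2.80 ± 0.21, adjusted p = 7.05e-13), while its relative Etv5 had 161 and 157 CPM in PKCi/L, against 77.9 and 88.4 CPM in S/L (log2 fold change 0.94 ± 0.15, adjusted p = 1.08e-05). The pair thus moved in opposite directions, and neither overlapped between groups. Among 13 Wnt targets 2 rose and 3 fell (1 with TMM), and the share of falls was near the 23.5% of all genes. The rises were Lef1 and Notum, a Wnt-inactivating esterase. Notum had 8.08 and 2.92 CPM in PKCi/L, against 0.75 and 0.78 CPM in S/L (log2 fold change 2.10 ± 0.29, adjusted p = 6.18e-07). The estimate for Notum was 1.43 without J-34 in PKCi/L and 2.76 without J-37 in PKCi/L. The count of falls was also 1 without either S/L library and in the J-34 pair alone. Cdx1, a homeobox target of Wnt, had 0.94 and 0.68 CPM in PKCi/L, against 3.63 and 2.65 CPM in S/L (log2 fold change -1.47 ± 0.20, adjusted p = 3.82e-07), while Axin2 had 5.51 and 4.41 CPM in PKCi/L, against 5.3 and 4.61 CPM in S/L (-0.00 ± 0.20, adjusted p = 0.993) and Sp5 stayed at or below 0.19 CPM in all 4 libraries. Of 12 NF-kB targets 6 fell and none rose (5 and 1 with TMM, and 2 falls in the J-34 pair alone), with the subunit gene Nfkb1 at 20.3 and 18.7 CPM in PKCi/L, against 42.7 and 41.1 CPM in S/L (log2 fold change -1.08 ± 0.16, adjusted p = 1.14e-06). Of 10 BMP targets 5 fell and 2 rose, with Id1, an inhibitor of differentiation factors, at 4.88 and 2.71 CPM in PKCi/L, against 11.5 and 11.3 CPM in S/L (log2 fold change -1.52 ± 0.26, adjusted p = 2.07e-05) and Dusp9, a phosphatase acting on ERK, at 31.8 and 32.9 CPM in PKCi/L, against 118 and 122 CPM in S/L (log2 fold change -1.88 ± 0.16, adjusted p = 1.24e-11). Both BMP rises were lost without J-34 in PKCi/L or without J-34 in S/L.

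Genes of the cytoskeleton, the basement membrane and cell junctions were lower in PKCi/L. Over all genes 23.5% fell and 5.80% rose, with a median of -0.17. Of 15 actin, SRF and YAP targets 10 fell and none rose (median -1.13). Of 18 basement membrane and integrin genes 15 fell and none rose (13 and 1 with TMM, median -0.99), and of 18 keratin and junction genes 12 fell and 1 rose (median -0.77). Tagln, an actin-binding SRF target, had 0.16 and 0.14 CPM in PKCi/L, against 7.44 and 6.61 CPM in S/L (log2 fold change -3.53 ± 0.21, adjusted p = 1.83e-15), and Cyr61, a matricellular YAP target, had 0.52 and 1.03 CPM in PKCi/L, against 12.9 and 12.3 CPM in S/L (log2 fold change -3.39 ± 0.18, adjusted p = 6.69e-17). Thbs1, an extracellular glycoprotein, had 1.11 and 0.62 CPM in PKCi/L, against 12.2 and 8.04 CPM in S/L (-2.96 ± 0.24). The groups were far apart in these 3 genes. Myl9, a myosin light chain, was listed at 0 in both PKCi/L libraries, against 2.36 and 2.97 CPM in S/L (adjusted p = 2.77e-11), and no fold is given. Lamb1, a laminin chain, had 17.3 and 14.7 CPM in PKCi/L, against 126 and 111 CPM in S/L (log2 fold change -2.85 ± 0.17, adjusted p = 9.52e-16), Col4a1, a collagen IV chain, had 11.9 and 9.23 CPM in PKCi/L, against 50.9 and 39.9 CPM in S/L (-2.05 ± 0.21) and Itga3, a laminin receptor subunit, had 4.41 and 5.12 CPM in PKCi/L, against 33.6 and 33.2 CPM in S/L (log2 fold change -2.69 ± 0.17, adjusted p = 1.57e-14). Krt8 and Krt18, partner keratins of simple epithelia, both fell. Krt8 had 3.06 and 3.14 CPM in PKCi/L, against 12.7 and 11.2 CPM in S/L (-1.79 ± 0.22), and Krt18 had 1.6 and 2.49 CPM in PKCi/L, against 11.7 and 12.5 CPM in S/L (-2.33 ± 0.25). E-cadherin (Cdh1) fell (-1.13 ± 0.15), and N-cadherin (Cdh2) did not pass (0.33 ± 0.26, adjusted p = 0.374). The single rise among junction genes, the plakophilin Pkp2 (0.53 ± 0.17), was lost without either PKCi/L library. Actn1 (0.07 ± 0.15, adjusted p = 0.78) and Vcl (-0.37 ± 0.16, adjusted p = 0.0684) did not pass.

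The window of Myl9 is shown because it holds a CArG box, the motif of serum response factor (SRF), marked in capitals, in a gene listed at 0 in PKCi/L.
Myl9 (chr2:156775214-156775513, plus strand): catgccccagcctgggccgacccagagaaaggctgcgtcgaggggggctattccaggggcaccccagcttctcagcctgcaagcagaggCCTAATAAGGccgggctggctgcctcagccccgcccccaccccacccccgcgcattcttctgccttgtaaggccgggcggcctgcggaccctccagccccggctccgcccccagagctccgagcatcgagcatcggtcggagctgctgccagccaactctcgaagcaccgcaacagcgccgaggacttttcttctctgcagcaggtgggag
The box begins 161 bases before the start. It was found on either strand in 2 of the 7 fallen list members with an entry (Cnn2 and Myl9), against 1.56% of tested genes with an entry and 1.63% of all windows. The list was made of SRF and YAP targets, and members that did not fall were not counted apart. The share is thus a description only and says nothing about the fall.

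Primitive endoderm markers fell in 11 of 12 measured cases (10 with TMM), and none rose. For this and the next lists, 23.5% of all genes fell and 5.80% rose. Gata6, a master factor of this lineage, had 0.12 and 0.16 CPM in PKCi/L, against 1.73 and 1.41 CPM in S/L (log2 fold change -1.69 ± 0.23, adjusted p = 3.28e-07), and Lrp2, an endocytic receptor, had 7.96 and 7.12 CPM in PKCi/L, against 38.3 and 37.9 CPM in S/L (log2 fold change -2.27 ± 0.24, adjusted p = 2.47e-09). The list shares Lamb1, Col4a1, Col4a2 and Lama1 with the basement membrane list. Of 10 trophoblast genes 5 fell and 1, Tfap2c at 45.2 and 52.8 CPM in PKCi/L, against 18.8 and 19.4 CPM in S/L (log2 fold change 1.33 ± 0.15, adjusted p = 1.03e-08), rose, and Tfap2c is also expressed in ESCs. Of 16 p53 target genes 11 fell and none rose (9 and 1 with TMM, and 6 falls without J-34 in PKCi/L). Perp, a desmosome-associated p53 target, had 3.44 and 5.39 CPM in PKCi/L, against 20.3 and 18.01 CPM in S/L (log2 fold change -2.02 ± 0.24, adjusted p = 2.17e-08), and Trp53inp1 had 76.5 and 104 CPM in PKCi/L, against 216 and 161 CPM in S/L (log2 fold change -1.06 ± 0.17, adjusted p = 8.54e-06). The cell cycle inhibitor Cdkn1a, a defining p53 target, had 7.05 and 9.99 CPM in PKCi/L, against 8.79 and 6.64 CPM in S/L (0.13 ± 0.19, interval -0.25 to 0.50, adjusted p = 0.649).

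**Figure D4:**
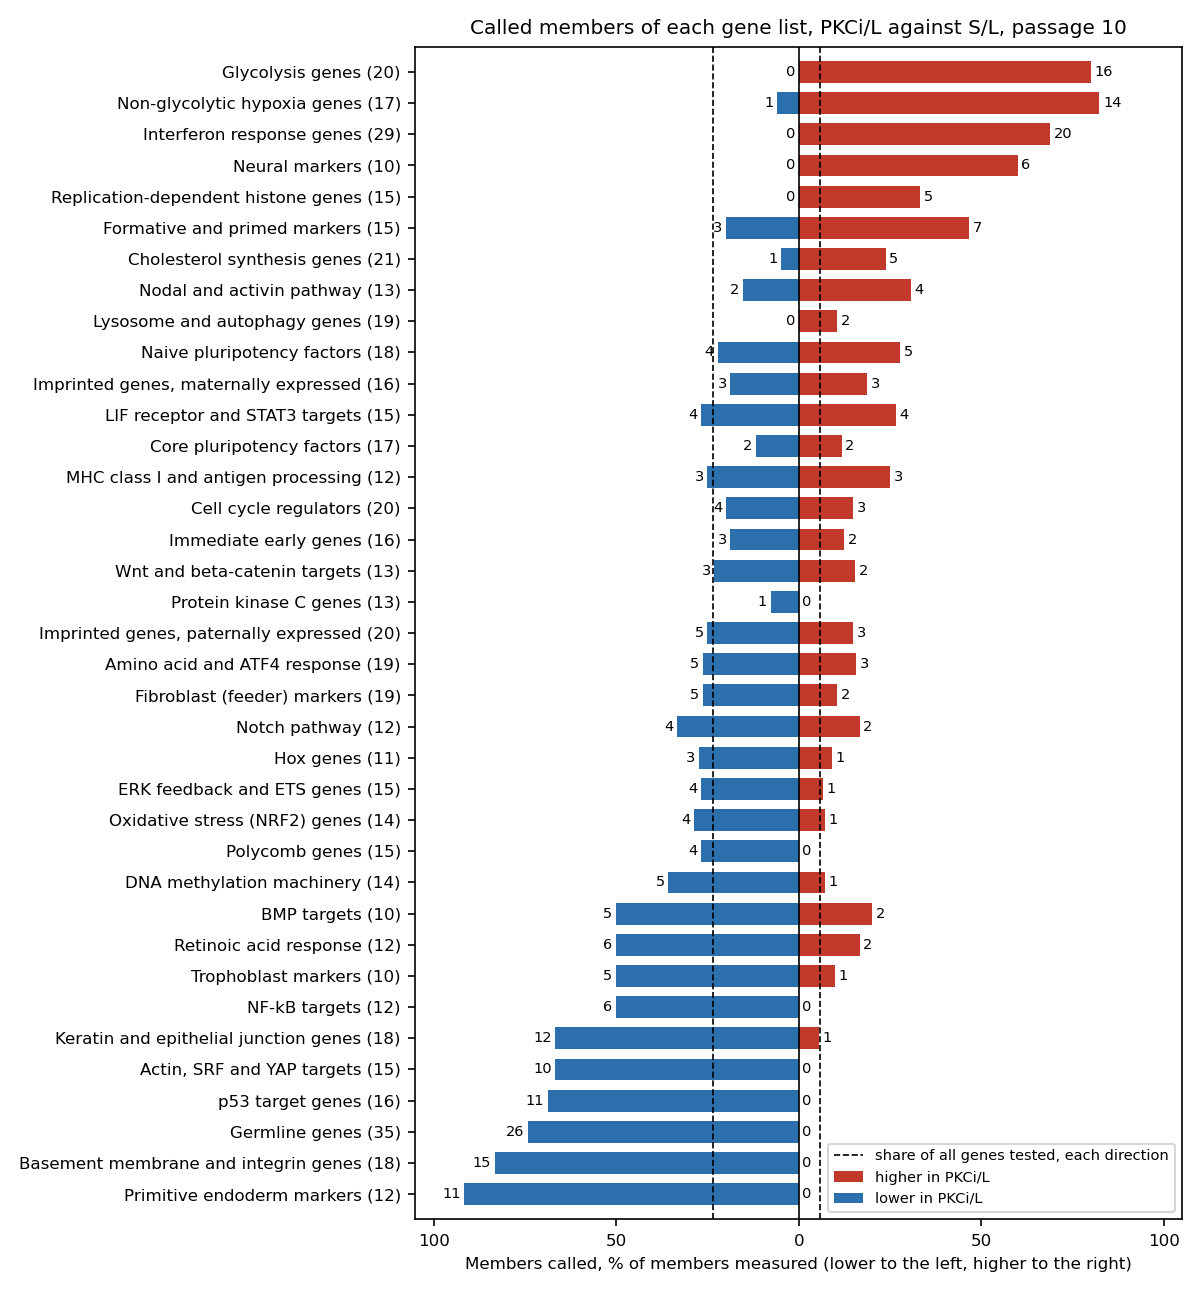
Share of measured members that rose (right, red) or fell (left, blue) in PKCi/L against S/L for each list with at least 10 measured members (number in parentheses), with counts beside the bars. Dashed lines mark the shares over all genes, 5.80% higher and 23.5% lower.

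The further media show where PKCi/L stands apart. Against 2i/L 1494 genes (11.5%) were higher in PKCi/L and 4300 (33.2%) lower, and with TMM 3449 (26.6%) were higher and 3489 (27.0%) lower. Against a2i/L 1309 (10.1%) were higher and 2777 (21.5%) lower, and with TMM 2606 and 2773. Without J-35 in a2i/L the counts against that medium were 752 and 1728, and without J-34 in PKCi/L 637 genes were higher. These comparisons share the PKCi/L libraries with each other and with the comparison against S/L, so they are not independent. Of the 29 interferon genes 14 were higher than in 2i/L and 14 higher than in a2i/L, with 3 and 2 lower. Usp18 had 4.95 and 5.2 CPM in PKCi/L, against 0.04 and 0 CPM in 2i/L and 0.47 and 0.29 CPM in a2i/L (adjusted p = 4.16e-14 and adjusted p = 8.34e-11). Irgm1 had 25.7 and 16.7 CPM in PKCi/L, against 2.13 and 2.65 CPM in 2i/L and 2.23 and 1 CPM in a2i/L (2.88 ± 0.27 and 3.39 ± 0.27). For both genes PKCi/L was above all libraries of the other 3 media at passage 10. Of the 10 neural markers 9 were higher than in 2i/L and 6 higher than in a2i/L, with Ncam1 at 13.5 and 13.7 CPM in 2i/L and 4.83 and 5.32 CPM in a2i/L (2.13 ± 0.20 and 3.47 ± 0.20). Zic2 had 32.1 and 26.1 CPM in 2i/L and 14.9 and 13.6 CPM in a2i/L, both below PKCi/L (0.95 ± 0.19 and 1.95 ± 0.19).

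Fewer glycolysis and hypoxia genes were called higher in PKCi/L against 2i/L and a2i/L than against S/L. Of the 20 glycolysis genes 7 were higher and 3 lower than in 2i/L (12 and 2 with TMM), against 11.5% and 33.2% of all genes (26.6% and 27.0% with TMM). Compared with a2i/L none was higher and 3 were lower, and the shares over all genes were 10.1% and 21.5%. Ldha had 835 and 862 CPM in 2i/L and 1242 and 1049 CPM in a2i/L, with differences of 0.12 ± 0.19 (interval -0.26 to 0.50, adjusted p = 0.63) and -0.31 ± 0.19 (interval -0.68 to 0.07, adjusted p = 0.226). Slc16a3 had 74.9 and 77.9 CPM in 2i/L (0.06 ± 0.23, interval -0.40 to 0.52). The upper bounds of these 3 intervals lie below the estimates against S/L. Of the 17 other hypoxia genes 4 were higher and 9 lower than in 2i/L (6 and 5 with TMM). Compared with a2i/L none was higher and 10 were lower, against 10.1% and 21.5% of all genes. Bnip3 had 76.2 and 85.8 CPM in 2i/L (0.63 ± 0.22, adjusted p = 0.0195) and 164 and 149 CPM in a2i/L (-0.31 ± 0.22, adjusted p = 0.31).

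Genes of ERK feedback and of DNA methylation include some of the large differences between PKCi/L and 2i/L. Of 15 ERK feedback and ETS genes 7 were higher and 2 lower than in 2i/L (8 and none with TMM), and of 14 DNA methylation genes 6 were higher and 3 lower (11 and 3 with TMM), against 11.5% and 33.2% of all genes (26.6% and 27.0% with TMM). Spry4 had 72.1 and 52.2 CPM in PKCi/L, against 0.2 and 0.11 CPM in 2i/L (log2 fold change 6.56 ± 0.22, adjusted p = 1.16e-22), and Dusp6 had 57.99 and 54 CPM in PKCi/L, against 3.1 and 3.3 CPM in 2i/L (log2 fold change 3.93 ± 0.19, adjusted p = 1.33e-18). Dnmt3l had 187 and 143 CPM in PKCi/L, against 3.96 and 3.71 CPM in 2i/L (log2 fold change 5.24 ± 0.20, adjusted p = 2.97e-21), and Dnmt3b had 74.5 and 58.6 CPM in PKCi/L, against 10.7 and 12.7 CPM in 2i/L (2.45 ± 0.18). Lin28a, which binds the precursors of let-7, had 114 and 82.3 CPM in PKCi/L, against 1.52 and 1.77 CPM in 2i/L (5.50 ± 0.25), while against S/L it did not pass (0.35 ± 0.25, adjusted p = 0.31). Each of these genes was higher in both PKCi/L libraries than in both 2i/L libraries. Of 13 Wnt targets 1 was higher and 9 lower than in 2i/L, with Axin2 at 5.51 and 4.41 CPM in PKCi/L, against 32.9 and 34.9 CPM in 2i/L (-2.66 ± 0.20) and Cdx1 at 0.94 and 0.68 CPM in PKCi/L, against 30.97 and 35.2 CPM in 2i/L (-4.68 ± 0.20). Germline genes were lower in PKCi/L than in 2i/L in 23 of 35 cases (3 higher) and than in a2i/L in 26 (none higher). Over all genes 21.5% were lower and 10.1% higher than in a2i/L. Dazl had 4.64 and 3.71 CPM in PKCi/L, against 274 and 219.9 CPM in 2i/L and 19.9 and 33.3 CPM in a2i/L (-5.73 ± 0.23 and -2.50 ± 0.23), so its PKCi/L level was the lowest of the 4 media at passage 10. Tfcp2l1 was likewise lowest in PKCi/L, with 739 and 808 CPM in 2i/L and 676 and 767 CPM in a2i/L (-2.05 ± 0.18 and -1.95 ± 0.18), and Lamb1 had 47.01 and 52.8 CPM in 2i/L and 29.7 and 39.5 CPM in a2i/L (-1.61 ± 0.17 and -1.08 ± 0.17). Tagln had 0.09 and 0.07 CPM in 2i/L, and its difference from PKCi/L did not pass (adjusted p = 0.565).

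**Figure D5:**
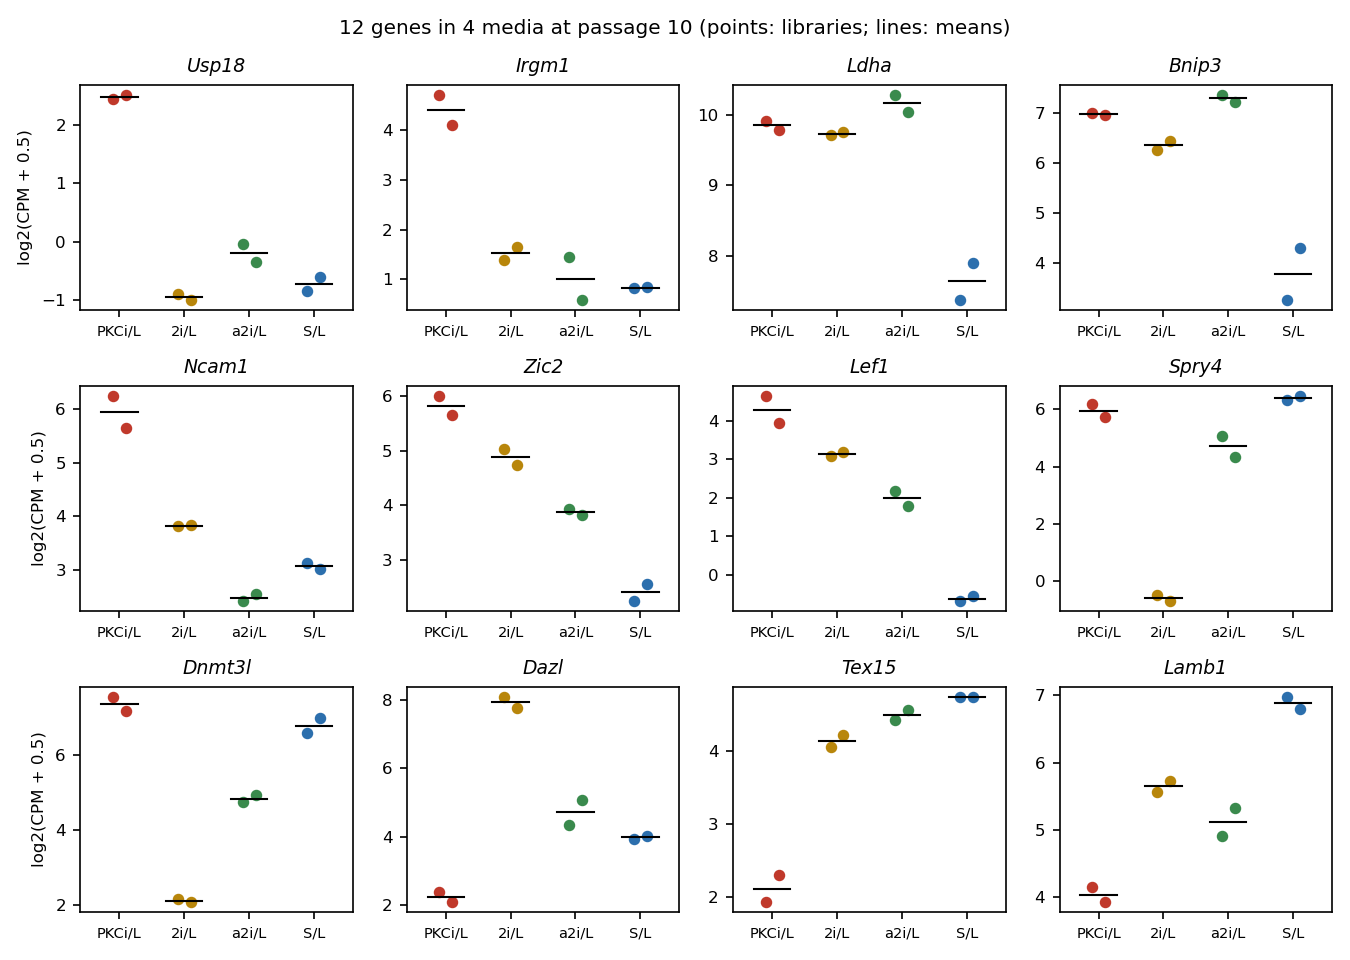
Levels of 12 genes (y axes, log2(CPM + 0.5), separate scales) in PKCi/L, 2i/L, a2i/L and S/L at passage 10, with 1 point per library and the mean as a line. Usp18, Irgm1 and Ncam1 are high in PKCi/L alone among these media, Ldha and Bnip3 are low in S/L, Spry4 and Dnmt3l are low in 2i/L, and Dazl, Tex15 and Lamb1 are lowest in PKCi/L.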

How the data were processed

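RNA of the 4 libraries compared, among 19 of the series, was depleted of ribosomal RNA, made into strand-marked paired-end libraries and sequenced on an Illumina HiSeq, per the labels' protocols. The submitters' processing notes list the tools HTSeq 0.6.0 and edgeR 3.8.6 beside STAR 2.3.0, together with Picard 1.100 and SAMtools 0.1.18.0, and the builds NCBIM37 and mm9. Whether counting used strand is not given in the sources used here. Values in the deposited table are linear CPM, which the authors rounded to 2 decimals. Its columns for the 4 libraries sum to 421426 to 454609 CPM, so part of each library's reads lies outside the listed genes, and every such gene reaches at least 1.01 CPM in 3 libraries. Whole read counts were not recovered from the rounded values, so no count test was run.

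Values were tested as log2(CPM + 0.5) without scaling, with limma 3.58.1 in R 4.3.3 (lmFit, eBayes with trend), in 1 fit over 19 libraries in 8 groups with 11 residual degrees of freedom. Benjamini-Hochberg adjustment ran over all genes of a comparison. Members, gene lists and rules were chosen with earlier results of these data known. Of 40 lists, counts and medians are given without a test. The text names the 12 largest rises and the 12 largest falls with non-overlapping groups and a gene symbol, up to 4 called members a list and a panel with 43 genes measured, 192 in all, and further list members are given by value, picked after their values were seen. A few of these genes are not reported here. TMM and median-ratio scaling used own code with trims of 0.3 and 0.05. The fit was tested on simulated data with independent libraries of equal depth and no line effect or shift of all genes. That test checks the code and does not show how the fit behaves on these libraries.

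Libraries of a group correlated at r = 0.990 (PKCi/L) and 0.993 (S/L), and no 2 were identical. Equal line numbers name the same ESC line and pair libraries of different media. Deviations of both J-34 libraries from their group means correlated at 0.0442, and those of the same line in the later groups at -0.07 to 0.26 (median 0.11, 5 of 9 above 0.1). Genes are named by the files' symbols. Promoter windows (RefSeq, build GRCm38.p6) were matched by symbol or synonym, leaving out 1 chromosome.

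Alternatives were TMM and median-ratio scaling, pseudocounts of 0.1 and 1 CPM, filters of at least 1 CPM in 2 of the 4 libraries and of a mean of 5 CPM, the line as block (from the title or from the other label), fits to 10 or 4 libraries, the J-34 pair alone and each library left out in turn. Leaving out 2i/L, a2i/L and later libraries was added after the data were seen.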

Additional observations from a re-analysis of the deposited data

How the results depend on the processing

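Of the 169 named genes that rose or fell, 133 kept call and direction wherever they were tested, over all alternatives and left-out libraries. None reversed. The 2 filters removed some genes before the test. Of the 192 named genes, 179 were tested with at least 1 CPM in 2 of the 4 libraries and 126 with a mean of 5 CPM. TMM and median-ratio scaling moved the count of genes higher than in S/L (2196 and 2246), than in 2i/L (3449 and 3372) and than in a2i/L (2606 and 2588), and brought the median of all genes to -0.00692 and -0.00317. They also left 5 genes between lines J-37 and J-35. The shift removed by scaling is near 0.16, so calls of small changes depend on it. A minimum mean of 5 CPM over the 4 libraries left fewer genes to call, 2250 against S/L (475 higher, 1775 lower), 3546 against 2i/L (974 and 2572) and 2483 against a2i/L (1560 lower). A 2-fold minimum left 235 higher and 961 lower. The J-34 pair alone gave 2234 calls, 1664 lower, with a median of -0.10, and rests on 1 library a group, assumed to vary like the others. The other planned settings stayed within 1.5 times the counts given.

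With the ESC line as replicate block 681 genes rose and 3056 fell, and 3491 were called the same way as without it. Of the named genes Dnmt3l, Zscan4f, Mesp2, Hoxb13 and Hoxd1 lost their call, and no other named gene's call changed.

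Leaving out 1 library gave 2565 to 2941 calls against S/L (443 to 756 higher, 2122 to 2424 lower, each lowest without J-34 in S/L) with medians of -0.22 to -0.11. Against 2i/L it gave 4469 to 5740 (1055 to 1482 higher, 3302 to 4258 lower) and against a2i/L 2480 to 3973 (637 to 1362 higher, 1728 to 2713 lower). The line count ran from 3, without J-37 in S/L at passage 20, to 271, without J-37 in the return from 2i/L to S/L at passage 23. The cause of these moves was not tested. With 3 reads as a floor, levels under 0.0707 to 0.0865 CPM cannot be told from 0. Intervals cover only the spread within groups over the 19 libraries of the fit.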

Other observations

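The transcripts of the imprinted Dlk1-Dio3 cluster were higher in PKCi/L. The maternally expressed noncoding RNAs Meg3, Rian and Mirg rose. Meg3 had 17.9 and 14.1 CPM in PKCi/L, against 6.25 and 5.15 CPM in S/L (log2 fold change 1.41 ± 0.20, adjusted p = 8.89e-07). Rian had 128 and 104.85 CPM in PKCi/L, against 50.3 and 50 CPM in S/L (1.20 ± 0.21), and Mirg had 10.6 and 6.53 CPM in PKCi/L, against 3 and 2.26 CPM in S/L (1.50 ± 0.26). Rtl1, the paternally expressed gene of the cluster, had 10.9 and 6.34 CPM in PKCi/L, against 1.87 and 1.64 CPM in S/L (log2 fold change 1.97 ± 0.26, adjusted p = 2.78e-07), but an antisense transcript overlaps it, and the 2 cannot be told apart if strand was not used in counting. Both PKCi/L libraries were above both S/L libraries for all 4. Of 16 maternally expressed imprinted genes 3 rose and 3 fell, and of 20 paternally expressed ones 3 rose and 5 fell (5 and 5 with TMM). The shares over all genes were 5.80% and 23.5% (17.0% and 19.6% with TMM). In the J-34 pair alone none of the maternally and 3 of the paternally expressed genes fell, and without J-35 in S/L 1 of the maternally expressed genes fell. Slc38a4, an amino acid transporter, had 22.7 and 30.5 CPM in PKCi/L, against 208 and 173 CPM in S/L (log2 fold change -2.83 ± 0.20, adjusted p = 7.88e-14), and Peg10, a retroelement-derived placental gene, had 22.9 and 19.8 CPM in PKCi/L, against 63.6 and 65.8 CPM in S/L (-1.58 ± 0.16). H19 did not pass (-0.44 ± 0.28, adjusted p = 0.256).

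The metallothionein genes Mt1 and Mt2, which bind metal ions, fell. Mt1 had 59.95 and 45.4 CPM in PKCi/L, against 109 and 124 CPM in S/L (-1.15 ± 0.17), and Mt2 had 51.8 and 44.4 CPM in PKCi/L, against 108 and 131 CPM in S/L (-1.30 ± 0.18). The antioxidant enzyme Nqo1 had 7.71 and 5.47 CPM in PKCi/L, against 27.1 and 26.2 CPM in S/L (log2 fold change -1.96 ± 0.17, adjusted p = 3.52e-11). The retinoid genes Crabp1, a binding protein, and Dhrs3, a retinaldehyde reductase, fell as well (-1.38 ± 0.18 and -1.19 ± 0.22). Insig1, induced when cells hold little cholesterol, had 112 and 95.05 CPM in PKCi/L, against 46.98 and 53.4 CPM in S/L (log2 fold change 1.04 ± 0.17, adjusted p = 6.94e-06). Over all genes 5.80% rose and 23.5% fell (17.0% and 19.6% with TMM). Of 21 cholesterol genes 5 rose and 1 fell (11 and 1 with TMM, and 3 rises without J-34 in PKCi/L or without J-34 in S/L).

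A few features differed widely between the PKCi/L libraries, and they were picked after their values were seen. The small nuclear RNA feature U5 had 23.1 and 95.9 CPM in PKCi/L, against 16.6 and 13.1 CPM in S/L (log2 fold change 1.64 ± 0.44, adjusted p = 0.00439). U1 had 19.06 and 77.5 CPM in PKCi/L, against 19.8 and 16.6 CPM in S/L (log2 fold change 1.07 ± 0.37, adjusted p = 0.0254), and U6atac had 5.63 and 22.2 CPM in PKCi/L, against 6.77 and 2.29 CPM in S/L (log2 fold change 1.39 ± 0.39, adjusted p = 0.00559). J-37 in PKCi/L was by far the highest library for all 3, and J-34 in PKCi/L lay among the S/L values for U1 and U6atac. Lars2, which encodes the mitochondrial leucyl-tRNA synthetase, had 687 and 200.3 CPM in PKCi/L, against 56.9 and 118 CPM in S/L (log2 fold change 2.17 ± 0.74, adjusted p = 0.0247). Mir5102 had 37.2 and 12.8 CPM in PKCi/L, against 2.59 and 7.83 CPM in S/L (log2 fold change 2.14 ± 0.65, adjusted p = 0.011), and mmu-mir-689-2 had 90.8 and 18.4 CPM in PKCi/L, against 10.3 and 11.8 CPM in S/L (log2 fold change 1.85 ± 0.68, adjusted p = 0.0359). J-34 in PKCi/L was the highest library for these 3, and with TMM the adjusted p was 0.0641 for Lars2 and 0.0802 for mmu-mir-689-2. The 3 features ranked the libraries in the same order. Whether the reads counted for them came from the named genes was not tested.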
